A study of Homo sapiens with 12 samples.

Results

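The genes described here build and remodel the actin cytoskeleton, including podosomes, the actin-rich adhesions with which macrophages grip and digest matrix. They were chosen as a list of 49 symbols, matched through the platform annotation. For each gene the probe set that names only that gene and had the highest mean over the 12 arrays was taken. This gave values for 45 of the 49 genes, out of 19775 genes in the whole series. ACTG1, FLNA, TPM3 and ACTR2 had no such probe set in the annotation used and were not analysed here. The older name TKS4 on the list is SH3PXD2B.

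Actin filaments grow from monomers bound by profilin and thymosins, branch through the Arp2/3 complex under the control of the Wiskott-Aldrich syndrome protein, and are severed by gelsolin and cofilin. A podosome has a core of branched actin and a surrounding ring of talin, vinculin and paxillin, which tie filaments to integrins, and its assembly needs scaffold proteins of the TKS family. Podosomes form as monocytes become adherent macrophages, and phorbol esters, which activate protein kinase C, are known to drive that change in monocytic lines.

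U937 is an established myelomonocytic line of human origin, and its RNA was measured on Affymetrix U133 Plus 2.0 arrays. The 4 groups, of 3 arrays each, were cells transduced with an EVI1 vector and given TPA (a phorbol ester, 50 ng/ml) for 24 h, empty vector cells given TPA, EVI1-transduced cells given the solvent ethanol, and empty vector cells given ethanol. EVI1 is a zinc finger transcription factor of myeloid leukaemia. The labels call the 3 samples of a group biological replicates but give neither the promoter of the vector, nor whether a population was 1 clone, nor whether transductions were separate, so p-values measure the spread between these samples.

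The EVI1 transcript, from the MECOM locus, was not shown by the array. Its 5 probe sets had log2 signals of 2.68 to 3.32 in EVI1-transduced cells in TPA, 2.59 to 3.30 in empty vector cells in TPA, 2.70 to 3.13 in EVI1-transduced cells in ethanol and 2.66 to 3.19 in empty vector cells in ethanol. The smallest adjusted p between the populations was 0.102 in TPA and 0.88 in ethanol. Whether these probe sets lie in the part of the transcript on the vector was not tested, so the transduced population is called EVI1-labelled. Arrays of 1 group correlated at 0.991 to 0.997, and arrays of different groups at up to 0.995. Of the myelomonocytic markers 10 of 10 measured had a mean signal above 5.07, the lowest array median, in at least 1 group, as did 3 of 9 markers of fibroblasts and epithelia, 4 of 5 of smooth muscle and 3 of 5 of platelets. With TPA 1 fibroblast and epithelial marker rose in empty vector cells, 1 of 5 lymphoid markers, NKG7, fell there (-0.63 ± 0.21), and no smooth muscle or platelet marker was called. With TPA 19.4% of all genes rose and 20.6% fell in EVI1-labelled cells, and 20.7% and 22.5% did in empty vector cells. Of the 10 myelomonocytic markers 3 rose and 6 fell with TPA in each population. Among the falls, ELANE gave -3.56 ± 0.26 in EVI1-labelled cells and -2.29 ± 0.26 in empty vector cells, and LYZ -1.63 ± 0.15 and -1.29 ± 0.15. The part of these changes in the members' response was not tested. Of 6 macrophage markers 3 rose with TPA in EVI1-labelled cells and 5 in empty vector cells. Only 4 of the 6 had a mean above 5.07 in at least 1 group. FCGR1A, 1 of the 5 that rose, did not, with group means of 2.94 to 3.41. CSF1R, which rose in both populations, is also on the myelomonocytic list. The mean log2 signal of the 6 per array was 6.20 to 6.43 in EVI1-labelled TPA cells and 6.83 to 7.25 in empty vector TPA cells. It was 4.31 to 4.45 in EVI1-labelled ethanol cells and 4.33 to 4.58 in empty vector ethanol cells.

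All levels below are log2 signals of 1 probe set, and all differences are log2 differences each with its standard error (SE) from the fit. No detection call was used, and a group mean below 5.07, a bound set after the data were seen, is not shown to be above background. A change was called when the limma adjusted p (Benjamini-Hochberg, over all 19775 genes) was under 0.05. The array readout is of bulk RNA, in which fewer cells of a type and less RNA per cell cannot be told apart.

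TPA raised most of the actin genes in both populations. In EVI1-labelled cells 29 of the 45 members rose and 2 fell, against a background of 19.4% of all genes that rose and 20.6% that fell (40% called in all). In empty vector cells 33 rose and 3 fell, with backgrounds of 20.7% and 22.5% (43.2% called in all). The median log2 difference of the members was 0.40 in EVI1-labelled cells and 0.58 in empty vector cells, and that of all genes was 0.00 and 0.02 in the same order. Members were brighter than most genes. Among the 38 members whose mean exceeded the median of all genes, 29 rose and 2 fell in EVI1-labelled cells, where 32.1% of all genes of that brightness rose and 35.6% fell (67.7% called). In empty vector cells 31 rose and 3 fell, beside 31.8% and 38.7% (70.5% called). In both populations 27 members rose and 2 fell, 1 moved in opposite directions and 8 were called in neither. Of all genes 35.1% were called in the same direction in both and 0.086% in opposite directions.

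Large changes were fewer. A called difference of at least 1 on the log2 scale was found for 16 members in EVI1-labelled cells (background 13.5%) and 19 in empty vector cells (background 15.4%). The TPA and ethanol arrays did not overlap for 35 members in EVI1-labelled cells (background 46.6%) and 37 in empty vector cells (background 50.3%).

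**Figure D1:**
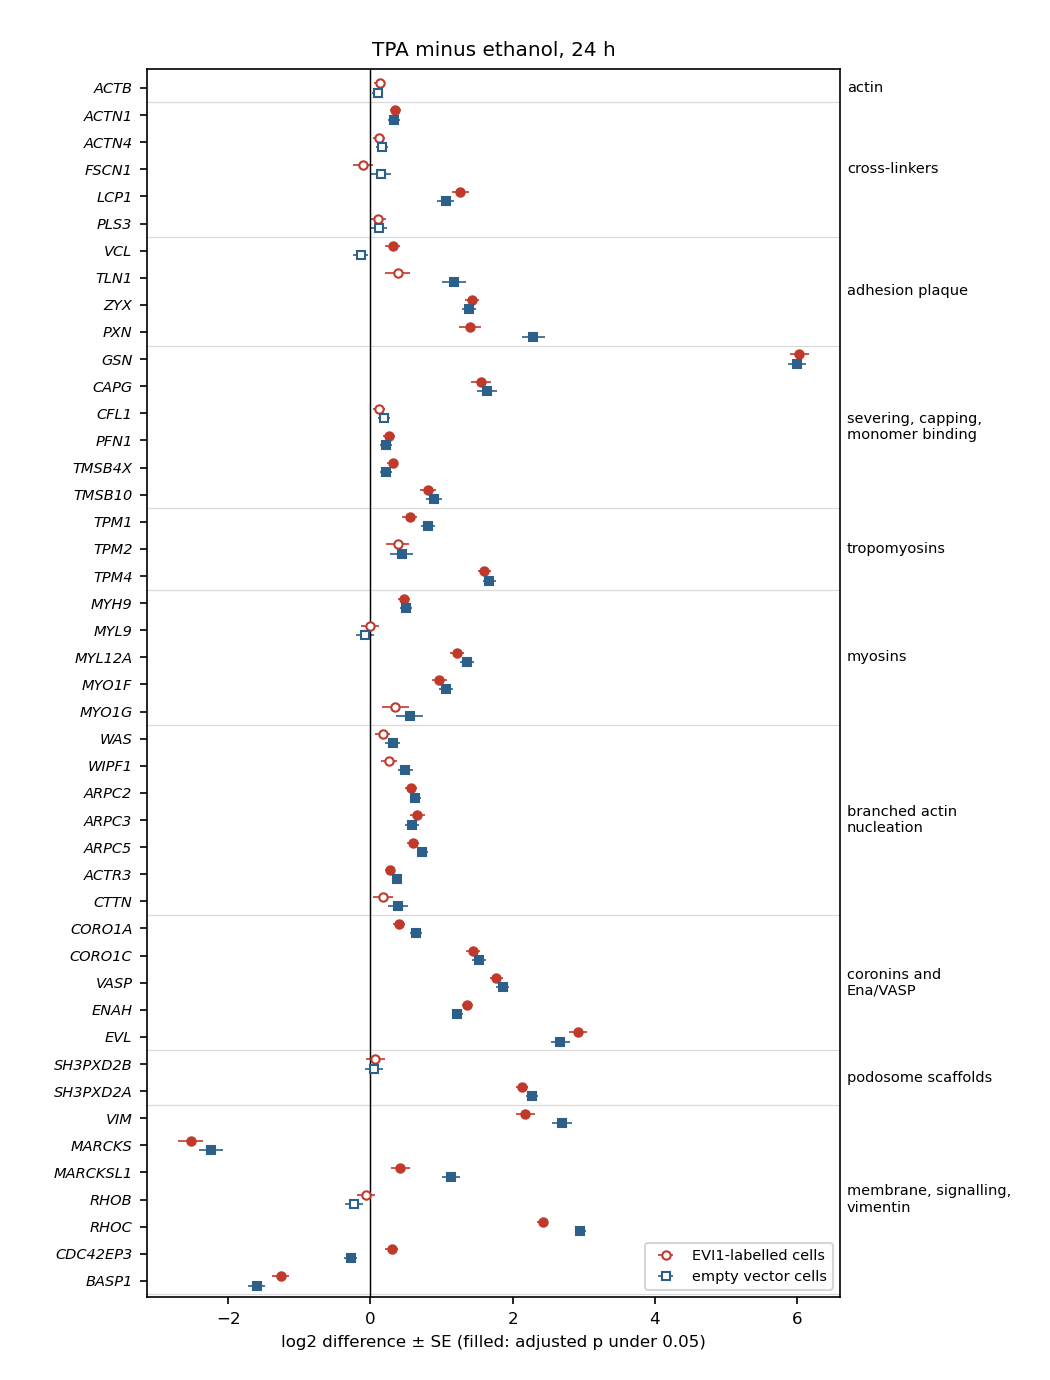
The log2 difference between TPA and ethanol, with its SE, is drawn for each of the 45 members in EVI1-labelled cells (circles) and empty vector cells (squares), ordered by role, and filled symbols had an adjusted p under 0.05. GSN lies far to the right of the rest at 6.03 and 6.0, and MARCKS and BASP1 lie left of 0 in both populations.

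ACTB, the cytoplasmic β-actin that most filaments of the cell contain, did not pass the test. Its log2 signals were 13.83, 13.82 and 13.94 in EVI1-labelled TPA cells, 13.90, 14.09 and 13.98 in empty vector TPA cells, 13.74, 13.74 and 13.71 in EVI1-labelled ethanol cells, and 13.91, 13.97 and 13.79 in empty vector ethanol cells. The TPA arrays lay above the ethanol arrays in EVI1-labelled cells and overlapped them in empty vector cells. The log2 difference was 0.13 ± 0.08 (adjusted p = 0.233) in EVI1-labelled cells and 0.10 ± 0.08 (adjusted p = 0.37) in empty vector cells, and its 3 probe sets ran from 0.13 to 0.15 and from 0.10 to 0.12. Saturation of so bright a signal, and signal from near-identical actin genes, were not tested.

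The array also carries ACTB control probe sets at the 3′ end, the middle and the 5′ end of the transcript. Labelling starts at the 3′ end, so the gap between the 3′ and the 5′ signal grows where RNA or its copies are shortened. The log2 gap was 1.23, 1.24 and 1.29 in EVI1-labelled TPA cells, 1.17, 1.64 and 1.28 in empty vector TPA cells, 2.01, 2.00 and 1.73 in EVI1-labelled ethanol cells, and 1.78, 1.85 and 1.72 in empty vector ethanol cells. Every TPA array lay below every ethanol array. The gap averaged 1.31 ± 0.17 in TPA and 1.85 ± 0.13 in ethanol (SD, n = 6 each), a difference of -0.54 (two-sided exact permutation test, p = 0.00216, the smallest this test can give).

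Within EVI1-labelled cells the mean gap was 1.25 ± 0.03 in TPA and 1.91 ± 0.16 in ethanol, and within empty vector cells 1.36 ± 0.25 and 1.78 ± 0.07 (SD, n = 3 each). Each of these has an exact permutation p of 0.1, the smallest possible with 3 against 3. Between the populations the gap gave an exact permutation p of 0.8 in TPA and 0.3 in ethanol. The corresponding gap of GAPDH averaged 0.40 ± 0.11 in TPA and 0.57 ± 0.15 in ethanol (SD, n = 6 each, exact permutation p = 0.0476).

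ACTB was called at some positions of the transcript and not at others. The 5′ control probe set rose by 0.80 ± 0.10 in EVI1-labelled cells (adjusted p = 9.42e-06) and by 0.49 ± 0.10 in empty vector cells (adjusted p = 0.000727). The middle one rose by 0.33 ± 0.10 in EVI1-labelled cells (adjusted p = 0.0182), with 0.20 ± 0.10 in empty vector cells (adjusted p = 0.148). The 3′ one gave 0.14 ± 0.09 (adjusted p = 0.274) and 0.07 ± 0.09 (adjusted p = 0.594) in the same order.

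The gap moved with the treatment in which the other members were compared. In a fit with the gap of each array as a covariate, 20 of the 31 called members in EVI1-labelled cells were called again. In empty vector cells 28 of the 36 were. The share of all genes called also went down, from 40% to 24.3% in EVI1-labelled cells and from 43.2% to 34.5% in empty vector cells. The median SE over all genes was 0.22 and 0.16 in place of 0.11, in the same order. The calls that members lost are named beside the roles below, with the log2 difference in that fit.

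**Figure D2:**
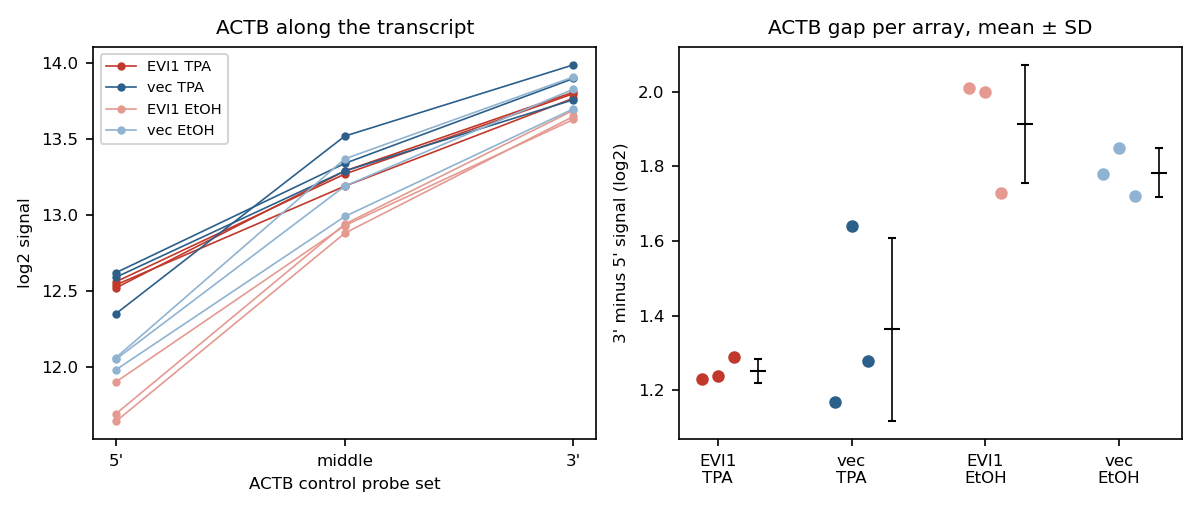
Left, the log2 signal of the ACTB control probe sets at the 5′ end, the middle and the 3′ end, with 1 line per array. Right, the 3′ minus 5′ log2 gap of each array (points) with the group mean and SD (bars); the 6 TPA arrays lie between 1.17 and 1.64 and the 6 ethanol arrays between 1.72 and 2.01.

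Among the proteins that cut filaments, cap them or hold monomers, 5 of 6 rose in each population. Beside this and each role below, 19.4% of all genes rose in EVI1-labelled cells and 20.7% in empty vector cells. The median log2 difference of the 6 was 0.56 in EVI1-labelled cells and 0.55 in empty vector cells. GSN encodes gelsolin, a calcium-dependent severing and capping protein of podosomes. Log2 signals of the gene were 12.23, 12.54 and 12.55 in EVI1-labelled TPA cells, 12.38, 12.55 and 12.33 in empty vector TPA cells, 6.42, 6.23 and 6.58 in EVI1-labelled ethanol cells, and 6.36, 6.26 and 6.65 in empty vector ethanol cells. The TPA and ethanol arrays were far apart, and the populations overlapped in each treatment. GSN rose by 6.03 ± 0.13 in EVI1-labelled cells (65.3-fold, adjusted p = 1.18e-12) and by 6.0 ± 0.13 in empty vector cells (63.9-fold, adjusted p = 5.07e-13).

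The size of the gelsolin change depended on the probe set. Of its 7 probe sets, 4 rose in EVI1-labelled cells and 5 in empty vector cells, and none fell. The next brightest probe set rose by 4.19 ± 0.14 and 3.55 ± 0.14, and the one after it by 1.49 ± 0.15 and 1.63 ± 0.15, in the same order of populations.

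CAPG, which caps filament ends in macrophages without cutting them, rose by 1.55 ± 0.14 in EVI1-labelled cells (adjusted p = 3.4e-07) and by 1.64 ± 0.14 in empty vector cells (adjusted p = 1.6e-07). TMSB10, a thymosin that holds monomers back from filaments, rose by 0.81 ± 0.11 and 0.89 ± 0.11. Its relative TMSB4X and PFN1, the profilin that delivers monomers to growing ends, rose by less: 0.31 ± 0.08 and 0.22 ± 0.08 for TMSB4X, and 0.26 ± 0.08 and 0.22 ± 0.08 for PFN1, in EVI1-labelled and in empty vector cells. With the gap as a covariate these calls were lost, at log2 differences of 0.26 and 0.18 for TMSB4X (adjusted p = 0.365 and 0.34) and 0.27 and 0.23 for PFN1 (adjusted p = 0.32 and 0.203). In empty vector cells the TMSB4X call was also lost without any 1 of 8 arrays (adjusted p up to 0.134, without empty vector TPA replicate 3) and the PFN1 call without any 1 of 5 (up to 0.129, without the same array). The PFN1 call in EVI1-labelled cells was lost without either of 2 arrays (up to 0.0711, without EVI1-labelled ethanol replicate 1). CFL1, the cofilin that disassembles old filaments, had log2 differences of 0.12 ± 0.08 (adjusted p = 0.289) and 0.19 ± 0.08 (adjusted p = 0.0654).

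Among cross-linkers, which bundle filaments or tie them into nets, 2 of 5 rose in each population, which is 40%. Of genes above the median signal 32.1% rose in EVI1-labelled cells and 31.8% in empty vector cells. LCP1, the plastin of leukocytes, rose by 1.26 ± 0.12 in EVI1-labelled cells (adjusted p = 9.81e-07) and by 1.06 ± 0.12 in empty vector cells (adjusted p = 4.46e-06). ACTN1, an α-actinin, rose by 0.35 ± 0.08 (adjusted p = 0.0034) and 0.33 ± 0.08 (adjusted p = 0.00514), which with the gap as a covariate became 0.40 (adjusted p = 0.159) and 0.36 (adjusted p = 0.0604). ACTN4, the filopodial bundler FSCN1 and the plastin PLS3 were not called in either population. The mean signals of FSCN1 in some groups and of PLS3 in all groups lay below 5.07, so they are not shown to be above background.

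Windows of 300 bases around annotated transcript starts, 250 before and 50 after, were searched for motifs of factors linked to phorbol esters, myeloid cells or actin genes. At least 1 window was found for 41 members (78 windows). Searched on both strands were the AP-1 motif TGANTCA, where N is any base, and the PU.1 core GAGGAAGT of myeloid genes. The CArG box bound by serum response factor was searched in the same way. AP-1 was in 4 of the 78 member windows (4 members), beside 7.71% of all 35116 windows. The AP-1 matches read TGACTCA in CAPG and WIPF1 and TGAATCA in ACTN4 and ARPC5. PU.1 was in 4 of the 78 (4 members), beside 2.59%, and the CArG box in 2 of the 78 (2 members), beside 1.29%. The 5 sequences below are windows of members that rose by at least 1 in both populations and hold a match, which is in capitals. They are RefSeq sequences of GRCh38.p14, read 5′ to 3′ in the direction of the gene. The GSN window, 1 of 6, is chr9:121285855-121286154 on the plus strand and holds the PU.1 core. The CAPG window, 1 of 4, is chr2:85413967-85414266 on the minus strand and holds the AP-1 motif. The LCP1 window is chr13:46182128-46182427 on the minus strand, with the PU.1 core. The TPM4 window, 1 of 3, is chr19:16067288-16067587 on the plus strand, with the CArG box. A second TPM4 window, chr19:16076766-16077065 on the plus strand, holds the PU.1 core read on the other strand. A match is a description of letters and not of binding.
GSN: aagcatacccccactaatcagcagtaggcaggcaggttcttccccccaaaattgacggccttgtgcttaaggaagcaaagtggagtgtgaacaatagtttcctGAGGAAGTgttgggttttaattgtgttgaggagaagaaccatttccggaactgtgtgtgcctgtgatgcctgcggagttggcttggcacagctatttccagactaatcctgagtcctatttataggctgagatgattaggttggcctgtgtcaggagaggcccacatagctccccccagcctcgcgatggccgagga
CAPG: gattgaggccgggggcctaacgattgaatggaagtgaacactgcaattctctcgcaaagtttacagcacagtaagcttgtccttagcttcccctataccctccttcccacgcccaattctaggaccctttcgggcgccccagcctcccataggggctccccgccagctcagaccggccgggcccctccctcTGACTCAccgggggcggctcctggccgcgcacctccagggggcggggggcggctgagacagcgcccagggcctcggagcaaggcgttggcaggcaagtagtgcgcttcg
LCP1: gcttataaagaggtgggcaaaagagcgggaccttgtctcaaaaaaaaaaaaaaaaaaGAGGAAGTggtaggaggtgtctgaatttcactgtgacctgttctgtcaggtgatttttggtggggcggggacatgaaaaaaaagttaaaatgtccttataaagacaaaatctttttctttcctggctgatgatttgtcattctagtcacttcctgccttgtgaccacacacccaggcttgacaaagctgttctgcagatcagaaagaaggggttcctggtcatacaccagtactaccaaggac
TPM4: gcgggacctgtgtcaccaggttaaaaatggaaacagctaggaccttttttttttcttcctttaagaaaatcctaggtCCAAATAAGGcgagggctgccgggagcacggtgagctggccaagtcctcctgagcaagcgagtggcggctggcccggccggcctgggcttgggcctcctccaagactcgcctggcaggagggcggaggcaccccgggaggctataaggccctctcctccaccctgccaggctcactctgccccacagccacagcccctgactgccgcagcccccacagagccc
TPM4 (second window): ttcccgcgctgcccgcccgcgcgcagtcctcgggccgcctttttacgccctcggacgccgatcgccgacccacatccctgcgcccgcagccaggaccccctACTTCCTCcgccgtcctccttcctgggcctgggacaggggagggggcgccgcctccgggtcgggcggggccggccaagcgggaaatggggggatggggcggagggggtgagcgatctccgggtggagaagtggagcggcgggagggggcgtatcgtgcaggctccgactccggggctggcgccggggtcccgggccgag

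Of 3 measured tropomyosins, which coat filaments and stabilise them, 2 rose in EVI1-labelled cells and all 3 in empty vector cells. TPM4, whose windows are printed above, rose by 1.60 ± 0.09 in EVI1-labelled cells (adjusted p = 4.29e-09) and by 1.67 ± 0.09 in empty vector cells (adjusted p = 2.18e-09). TPM1 rose by 0.55 ± 0.10 (adjusted p = 0.000365) and 0.81 ± 0.10 (adjusted p = 9.83e-06); its call in EVI1-labelled cells was lost with the gap as a covariate (0.37, adjusted p = 0.27). TPM2 gave 0.38 ± 0.16 (adjusted p = 0.0684) in EVI1-labelled cells and rose by 0.44 ± 0.16 (adjusted p = 0.0331) in empty vector cells. That call was lost with the covariate (0.36, adjusted p = 0.326) and without any 1 of 4 arrays (up to 0.166, without empty vector TPA replicate 3).

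Among adhesion plaque genes, whose proteins join integrins to actin, 3 of 4 rose in each population, with median log2 differences of 0.89 in EVI1-labelled cells and 1.29 in empty vector cells. PXN encodes paxillin, a scaffold of the podosome ring. The 3 arrays of each group gave log2 signals of 8.78, 8.44 and 9.23 in EVI1-labelled TPA cells, 9.52, 9.72 and 9.58 in empty vector TPA cells, 7.29, 7.59 and 7.36 in EVI1-labelled ethanol cells, and 7.21, 7.40 and 7.34 in empty vector ethanol cells. In TPA all EVI1-labelled arrays lay below all empty vector arrays, and in ethanol the populations overlapped. PXN rose by 1.40 ± 0.16 in EVI1-labelled cells (2.65-fold, adjusted p = 3.97e-06) and by 2.29 ± 0.16 in empty vector cells (4.89-fold, adjusted p = 2.33e-08). The difference between these responses was -0.89 ± 0.22, with an adjusted p of 0.0622. The second PXN probe set was dim, with a mean signal of 4.75. It rose by 0.42 ± 0.13 in each population (adjusted p = 0.0159 in EVI1-labelled and 0.0153 in empty vector cells, in a fit of all probe sets).

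ZYX, the LIM protein zyxin, rose by 1.43 ± 0.10 in EVI1-labelled cells and 1.39 ± 0.10 in empty vector cells, with a difference in response of 0.04 ± 0.14 (adjusted p = 0.953). TLN1 encodes talin, which activates integrins. It gave 0.38 ± 0.17 in EVI1-labelled cells (adjusted p = 0.101) and rose by 1.18 ± 0.17 in empty vector cells (adjusted p = 4.51e-05). The difference between the responses was -0.80 ± 0.24 (adjusted p = 0.135). A TLN1 probe set with a mean signal of 6.04, against 6.63, rose in both, by 0.99 ± 0.15 (adjusted p = 7.23e-05) and 1.31 ± 0.15. The third, at 5.40, gave 0.27 ± 0.16 (adjusted p = 0.23) and rose by 0.61 ± 0.16 in the same order. Their differences in response, -0.32 ± 0.21 and -0.34 ± 0.22, were not called in a fit of all probe sets (adjusted p = 0.639 and 0.638). VCL encodes vinculin, which binds talin and actin. Its log2 signals were 10.09, 10.02 and 10.20 in EVI1-labelled TPA cells, 9.56, 9.53 and 9.87 in empty vector TPA cells, 9.80, 9.72 and 9.87 in EVI1-labelled ethanol cells, and 9.80, 9.73 and 9.84 in empty vector ethanol cells. The EVI1-labelled TPA arrays were the highest and overlapped no other group. VCL rose by 0.31 ± 0.10 in EVI1-labelled cells (adjusted p = 0.0208) and gave -0.14 ± 0.10 in empty vector cells (adjusted p = 0.306). The rise was lost with the gap as a covariate (0.10, adjusted p = 0.805) and without any 1 of 3 arrays (up to 0.0829, without EVI1-labelled ethanol replicate 2). The second VCL probe set was dim, with a mean signal of 4.50, and gave 0.05 ± 0.15 and 0.02 ± 0.15.

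Both podosome scaffolds of the TKS family were measured, and 1 of them rose. SH3PXD2A encodes TKS5. Log2 signals of the gene were 11.44, 11.44 and 11.33 in EVI1-labelled TPA cells, 11.58, 11.62 and 11.42 in empty vector TPA cells, 9.19, 9.31 and 9.32 in EVI1-labelled ethanol cells, and 9.18, 9.35 and 9.29 in empty vector ethanol cells. Each TPA array was above each ethanol array, and the populations overlapped. SH3PXD2A rose by 2.13 ± 0.08 in EVI1-labelled cells (4.38-fold, adjusted p = 1.51e-10) and by 2.27 ± 0.08 in empty vector cells (4.81-fold, adjusted p = 6.22e-11), and all 3 of its probe sets rose in both. SH3PXD2B, which encodes TKS4, gave 0.07 ± 0.13 (adjusted p = 0.725) and 0.05 ± 0.13 (adjusted p = 0.789).

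Of 7 genes of branched nucleation, 4 rose in EVI1-labelled cells and all 7 in empty vector cells. The median log2 differences were 0.27 in EVI1-labelled cells and 0.49 in empty vector cells. The difference in response between the populations was called for 0 of the 7. ARPC5, ARPC3, ARPC2 and ACTR3 encode subunits of the Arp2/3 complex, which starts a new filament on the side of an old one. ARPC5 rose by 0.60 ± 0.08 in EVI1-labelled cells and 0.73 ± 0.08 in empty vector cells, ARPC3 by 0.66 ± 0.10 and 0.58 ± 0.10, ARPC2 by 0.57 ± 0.08 and 0.63 ± 0.08, and ACTR3 by 0.27 ± 0.07 and 0.37 ± 0.07. With the gap as a covariate these 4 kept their calls in empty vector cells and lost them in EVI1-labelled cells, at log2 differences of 0.44 (adjusted p = 0.0795), 0.62 (0.0523), 0.28 (0.259) and 0.25 (0.291) in the order given.

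WAS, the activator of the complex in blood cells, gave 0.17 ± 0.10 in EVI1-labelled cells (adjusted p = 0.239) and rose by 0.31 ± 0.10 in empty vector cells (adjusted p = 0.0252). The second WAS probe set was not called in either population (0.26, adjusted p = 0.0646, and 0.13, adjusted p = 0.382, in the same order). WIPF1, the partner of WAS, gave 0.26 ± 0.11 (adjusted p = 0.0683) and rose by 0.49 ± 0.11 (adjusted p = 0.0017) in the same order. All 4 WIPF1 probe sets rose in empty vector cells. In EVI1-labelled cells 2 of them rose, by 0.51 ± 0.13 (adjusted p = 0.00625) and 0.36 ± 0.13 (adjusted p = 0.0432). CTTN, the cortactin that stabilises branches, gave 0.17 ± 0.14 in EVI1-labelled cells (adjusted p = 0.404). It rose by 0.39 ± 0.14 in empty vector cells (adjusted p = 0.0344), at mean log2 signals of 4.14 in TPA and 3.75 in ethanol, which are not shown to be above background. With the covariate the 3 calls were lost (0.21 and adjusted p = 0.396 for WAS, 0.37 and 0.117 for WIPF1, 0.43 and 0.188 for CTTN). Without any 1 of 4 arrays the WAS call was lost (up to 0.097, without empty vector TPA replicate 1), and so was that of CTTN (up to 0.116, without empty vector ethanol replicate 3). For ACTR3 the 3 brightest probe sets rose in both populations, while the next one fell by 0.34 ± 0.12 in empty vector cells. No other member had probe sets called in opposite directions within a population.

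All 5 coronin and Ena/VASP genes rose in both populations, with median log2 differences of 1.44 in EVI1-labelled cells and 1.53 in empty vector cells. Ena/VASP proteins extend unbranched filaments, and coronins bind filaments and help to clear old branches. EVL had log2 signals of 10.86, 11.15 and 11.02 in EVI1-labelled TPA cells, 10.70, 11.09 and 10.62 in empty vector TPA cells, 8.0, 8.20 and 8.06 in EVI1-labelled ethanol cells, and 8.13, 8.32 and 7.94 in empty vector ethanol cells. VASP had 10.20, 10.28 and 10.27 in EVI1-labelled TPA cells, 10.13, 10.30 and 10.35 in empty vector TPA cells, 8.55, 8.54 and 8.34 in EVI1-labelled ethanol cells, and 8.46, 8.47 and 8.26 in empty vector ethanol cells. For both genes the TPA arrays lay above the ethanol arrays and the populations overlapped.

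EVL rose by 2.92 ± 0.13 in EVI1-labelled cells (7.59-fold) and by 2.67 ± 0.13 in empty vector cells (6.38-fold), and VASP by 1.77 ± 0.09 (3.42-fold) and 1.86 ± 0.09 (3.64-fold). The largest of these 4 adjusted p-values was 2.08e-09. CORO1C rose by 1.44 ± 0.10 and 1.53 ± 0.10. ENAH, known as Mena, and CORO1A, the coronin of leukocytes, also rose and are described with the populations below.

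Of the 5 myosin genes, 3 rose in EVI1-labelled cells and 4 in empty vector cells. MYL12A, a regulatory light chain of non-muscle myosin, rose by 1.22 ± 0.10 in EVI1-labelled cells (adjusted p = 1.9e-07) and by 1.36 ± 0.10 in empty vector cells (adjusted p = 5.32e-08), in all 4 of its probe sets. MYH9, its heavy chain partner, rose by 0.47 ± 0.09 and 0.50 ± 0.09, and MYL9, another light chain, gave -0.01 ± 0.13 and -0.08 ± 0.13 and was not called. MYO1F, a class I myosin of blood cells, rose by 0.97 ± 0.10 and 1.06 ± 0.10. MYO1G, its relative, gave 0.35 ± 0.19 in EVI1-labelled cells (adjusted p = 0.181) and rose by 0.55 ± 0.19 in empty vector cells (adjusted p = 0.0327). That call was lost with the covariate (0.37, adjusted p = 0.426) and without any 1 of 4 arrays (up to 0.121, without empty vector TPA replicate 1). The other MYO1G probe set, with a mean signal of 8.40, was called in the other population instead. It rose by 0.50 ± 0.16 in EVI1-labelled cells (adjusted p = 0.0241) and gave 0.23 ± 0.16 in empty vector cells (adjusted p = 0.304).

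The last group holds signalling genes, membrane-bound substrates of protein kinase C and the intermediate filament protein vimentin. It held every member that fell: 4 rose and 2 fell in EVI1-labelled cells, and 3 rose and 3 fell in empty vector cells. RHOC encodes a GTPase of cell migration. The 3 arrays of each group gave log2 signals of 10.24, 10.16 and 10.36 in EVI1-labelled TPA cells, 10.46, 10.49 and 10.58 in empty vector TPA cells, 7.77, 7.78 and 7.96 in EVI1-labelled ethanol cells, and 7.53, 7.56 and 7.59 in empty vector ethanol cells. EVI1-labelled arrays lay below empty vector arrays in TPA and above them in ethanol, without overlap in either. RHOC rose by 2.42 ± 0.08 in EVI1-labelled cells (5.34-fold, adjusted p = 4.64e-11) and by 2.95 ± 0.08 in empty vector cells (7.73-fold, adjusted p = 6.56e-12).

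VIM, which encodes vimentin, had log2 signals of 13.37, 13.18 and 13.43 in EVI1-labelled TPA cells, 13.73, 13.71 and 13.81 in empty vector TPA cells, 11.32, 10.87 and 11.24 in EVI1-labelled ethanol cells, and 11.34, 10.81 and 11.04 in empty vector ethanol cells. In TPA the EVI1-labelled arrays were the lower ones without overlap, and in ethanol the populations overlapped. VIM rose by 2.18 ± 0.14 in EVI1-labelled cells (4.54-fold) and by 2.69 ± 0.14 in empty vector cells (6.44-fold), and the difference in response was -0.50 ± 0.20 (adjusted p = 0.279). A second, dimmer probe set of VIM with a mean signal of 4.59 rose by 2.30 ± 0.21 and 4.24 ± 0.21 in the same order, and its difference in response, -1.93 ± 0.29, was called (adjusted p = 0.00465 in a fit of all probe sets).

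MARCKS encodes a membrane protein that binds actin and is a major substrate of protein kinase C. Its log2 signals were 7.29, 6.43 and 7.15 in EVI1-labelled TPA cells, 7.57, 7.50 and 7.59 in empty vector TPA cells, 9.52, 9.63 and 9.32 in EVI1-labelled ethanol cells, and 9.91, 9.84 and 9.64 in empty vector ethanol cells. All TPA arrays were below all ethanol arrays, and EVI1-labelled arrays were below empty vector arrays in each treatment. MARCKS fell by 2.53 ± 0.17 in EVI1-labelled cells (adjusted p = 3.08e-08) and fell by 2.24 ± 0.17 in empty vector cells (adjusted p = 8.59e-08), and each of its 5 probe sets fell in both populations. Its relative MARCKSL1 rose, by 0.42 ± 0.13 in EVI1-labelled cells (adjusted p = 0.0171) and by 1.13 ± 0.13 in empty vector cells (adjusted p = 4.54e-06). The first of these calls was lost without either of 2 arrays (up to 0.0798, without EVI1-labelled ethanol replicate 1), and the difference in response was -0.71 ± 0.18 (adjusted p = 0.0721).

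BASP1 encodes another myristoylated membrane protein of this kind. Log2 signals of the gene were 8.96, 9.10 and 9.13 in EVI1-labelled TPA cells, 8.48, 8.66 and 8.09 in empty vector TPA cells, 10.28, 10.35 and 10.33 in EVI1-labelled ethanol cells, and 10.04, 10.04 and 9.94 in empty vector ethanol cells. TPA arrays were the lower ones, and EVI1-labelled arrays were above empty vector arrays in each treatment. BASP1 fell by 1.26 ± 0.12 in EVI1-labelled cells (adjusted p = 7.5e-07) and by 1.60 ± 0.12 in empty vector cells (adjusted p = 5.46e-08); its other probe set gave -0.12 and -0.14 and was not called. RHOB, a GTPase of endosomes, was not called, and its mean signals in all groups lay below 5.07.

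CDC42EP3, an effector of the GTPase Cdc42 that organises actin and septins, was the member that moved in opposite directions. The 3 arrays of each group gave log2 signals of 10.13, 10.23 and 10.00 in EVI1-labelled TPA cells, 9.34, 9.15 and 9.44 in empty vector TPA cells, 9.74, 9.88 and 9.84 in EVI1-labelled ethanol cells, and 9.67, 9.56 and 9.54 in empty vector ethanol cells. Against their own ethanol arrays the EVI1-labelled TPA arrays were all higher and the empty vector TPA arrays all lower. CDC42EP3 rose by 0.30 ± 0.09 in EVI1-labelled cells (adjusted p = 0.0188) and fell by 0.28 ± 0.09 in empty vector cells (adjusted p = 0.0254). The rise was found in all 4 probe sets, the fall in 1 of them. With the gap as a covariate the rise was 0.04 (adjusted p = 0.93). Leaving out either of 2 arrays ended the rise (up to 0.0809, without EVI1-labelled TPA replicate 2), and either of 2 ended the fall (up to 0.119, without empty vector TPA replicate 2).

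**Figure D3:**
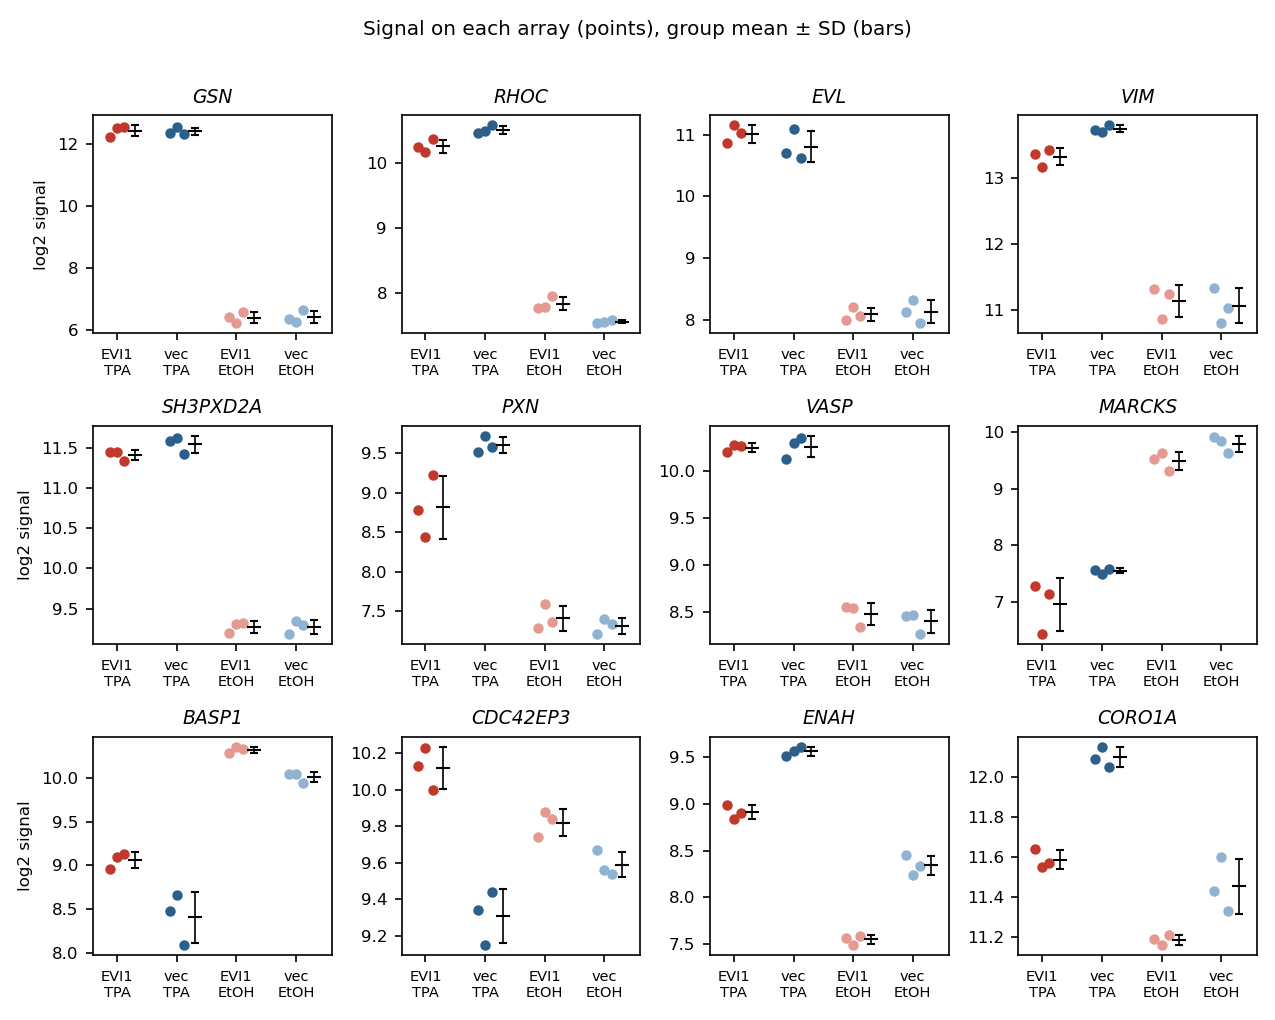
Log2 signal of 12 members on each of the 12 arrays (points), with the group mean and SD (bars), for EVI1-labelled and empty vector (vec) cells in TPA and then in ethanol (EtOH); each panel has its own axis. GSN, RHOC, EVL, VIM, SH3PXD2A, PXN and VASP are high in both TPA groups, MARCKS and BASP1 are low in them, and ENAH is lower in EVI1-labelled cells in each treatment.

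**Figure D4:**
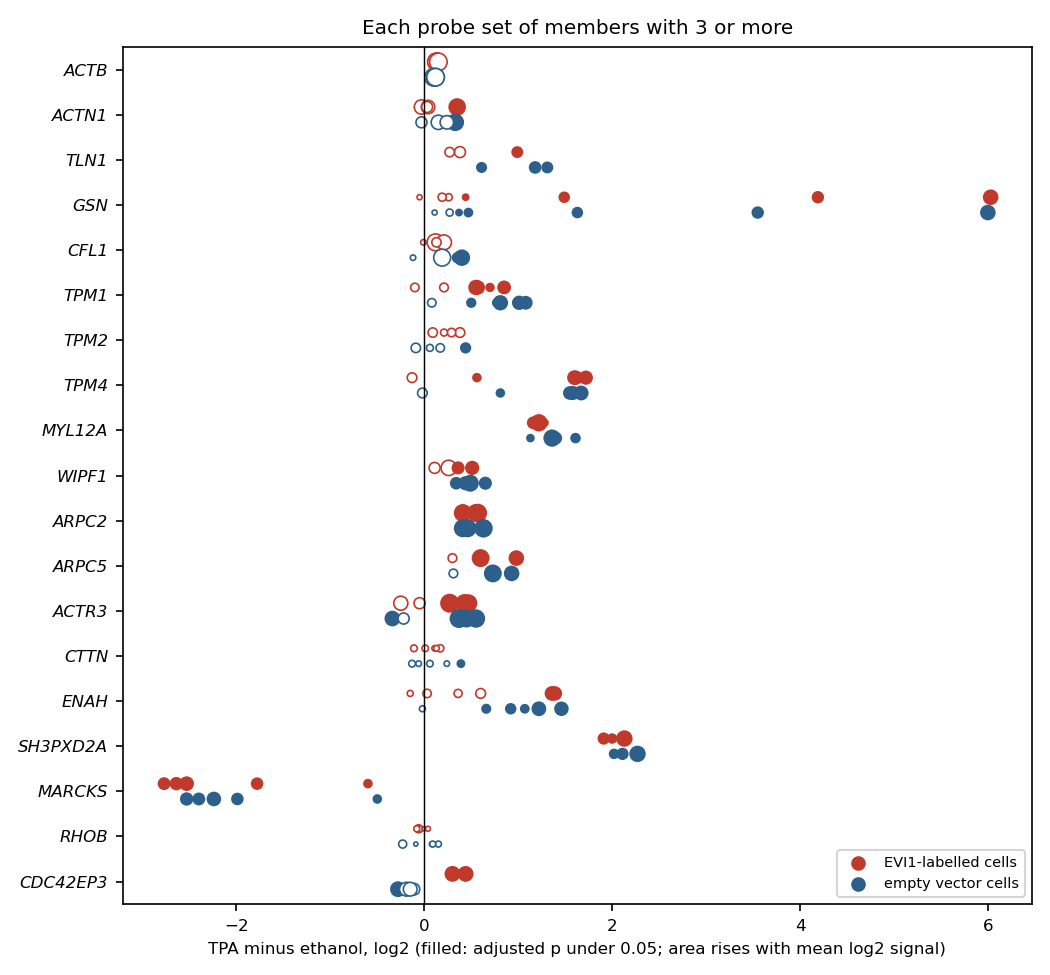
Each point is the log2 difference between TPA and ethanol of 1 probe set, for the 19 members with 3 or more probe sets, in EVI1-labelled cells (red, upper) and empty vector cells (blue, lower); filled points had an adjusted p under 0.05 in a fit of all probe sets, and larger points are brighter. GSN spreads from -0.05 to 6.03 in EVI1-labelled cells, MARCKS lies left of 0 throughout, and CDC42EP3 lies on opposite sides of 0 in the populations.

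Few members were called between the populations. These comparisons share their arrays with those of TPA against ethanol. In TPA, 3 of 45 were higher and 5 lower in EVI1-labelled than in empty vector cells, 8 in all, with a background of 11.2% of all genes called (5.9% higher and 5.3% lower) and 18.9% of genes above the median signal. In ethanol 1 was lower, with a background of 3.27% called and 1.95% lower (1.32% were higher). The arrays of the populations did not overlap for 12 members in TPA (background 22.4%) and 17 in ethanol (background 22%). In TPA 4 of the 6 measured macrophage markers and 3 of the 10 myelomonocytic ones were lower in EVI1-labelled cells. FCGR1A, 1 of those 4 macrophage markers, had means below 5.07 in all 4 groups. The mean log2 signal of the macrophage list was 6.20 to 6.43 per array in EVI1-labelled and 6.83 to 7.25 in empty vector cells. The part of this in the members' differences was not tested.

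ENAH was the member called in both treatments. Its log2 signals were 8.99, 8.84 and 8.90 in EVI1-labelled TPA cells, 9.51, 9.57 and 9.61 in empty vector TPA cells, 7.57, 7.49 and 7.59 in EVI1-labelled ethanol cells, and 8.45, 8.24 and 8.34 in empty vector ethanol cells. The 4 groups did not overlap. ENAH was lower in EVI1-labelled cells by a log2 difference of -0.65 ± 0.08 in TPA (0.636-fold, adjusted p = 0.000133) and -0.79 ± 0.08 in ethanol (0.577-fold, adjusted p = 0.000108). Its rise with TPA was 1.36 ± 0.08 in EVI1-labelled cells and 1.22 ± 0.08 in empty vector cells, and the difference in response was 0.14 ± 0.11 (adjusted p = 0.70). In TPA 5 of its 6 probe sets were lower in EVI1-labelled cells, with log2 differences from -0.96 to -0.14 over the 6, and in ethanol 2 were. With TPA 2 of the 6 rose in EVI1-labelled cells and 5 in empty vector cells. Their differences in response ran from -0.72 to 0.14, and none was called.

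In TPA CDC42EP3 was higher in EVI1-labelled cells by 0.81 ± 0.09 (1.75-fold, adjusted p = 8.71e-05), and all 4 probe sets were, by 0.42 to 0.88. BASP1 was higher by 0.65 ± 0.12 (1.57-fold, adjusted p = 0.00251) and VCL by 0.45 ± 0.10 (1.37-fold, adjusted p = 0.00803). For VCL the adjusted p was 0.0581 in a fit of the compared groups alone, and the dim second probe set gave -0.0033 (adjusted p = 0.993).

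PXN was lower in EVI1-labelled TPA cells by a log2 difference of -0.79 ± 0.16 (0.578-fold, adjusted p = 0.00457). Its dim second probe set gave -0.19 ± 0.13 and was not called (adjusted p = 0.473 in a fit of all probe sets). CORO1A was lower in EVI1-labelled TPA cells by a log2 difference of -0.51 ± 0.08 (0.702-fold, adjusted p = 0.00101). The log2 signals of CORO1A were 11.64, 11.55 and 11.57 in EVI1-labelled TPA cells, 12.09, 12.15 and 12.05 in empty vector TPA cells, 11.19, 11.16 and 11.21 in EVI1-labelled ethanol cells, and 11.43, 11.60 and 11.33 in empty vector ethanol cells. EVI1-labelled arrays were the lower ones in each treatment, and the ethanol difference of -0.27 ± 0.08 did not pass (adjusted p = 0.116). CORO1A rose with TPA by 0.40 ± 0.08 in EVI1-labelled cells, a call lost with the gap as a covariate (0.51, adjusted p = 0.0541), and by 0.64 ± 0.08 in empty vector cells.

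MYO1F had log2 signals of 9.91, 9.86 and 9.94 in EVI1-labelled TPA cells, 10.26, 10.48 and 10.13 in empty vector TPA cells, 8.91, 9.01 and 8.87 in EVI1-labelled ethanol cells, and 9.30, 9.30 and 9.10 in empty vector ethanol cells. EVI1-labelled arrays were again below the others of their treatment. The log2 difference was -0.39 ± 0.10 in TPA (adjusted p = 0.019) and -0.30 ± 0.10 in ethanol (adjusted p = 0.14). The TPA call was lost in a fit of the compared groups alone (adjusted p = 0.0806) and without either of 2 arrays (up to 0.0814, without empty vector TPA replicate 2). MARCKS gave -0.60 ± 0.17 in TPA (adjusted p = 0.0422), which was lost without any 1 of 9 arrays (up to 0.11, without empty vector TPA replicate 3), with the compared groups alone (adjusted p = 0.134), with the gap as a covariate (-0.57, adjusted p = 0.0873) and with the probe set of largest interquartile range (-0.15, adjusted p = 0.654).

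With replicate number as a block, 11 members differed between the populations in TPA in place of 8. All 8 were among them, and the other 3 were TLN1 at -0.54 (adjusted p = 0.0183 with the block and 0.0614 without), VIM at -0.42 (0.0178 and 0.0698) and RHOC at -0.26 (0.0355 and 0.066). All 3 were lower in EVI1-labelled cells. The dimmer VIM probe set gave -1.89 ± 0.21 without the block (adjusted p = 6.65e-05 in a fit of all probe sets).

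**Figure D5:**
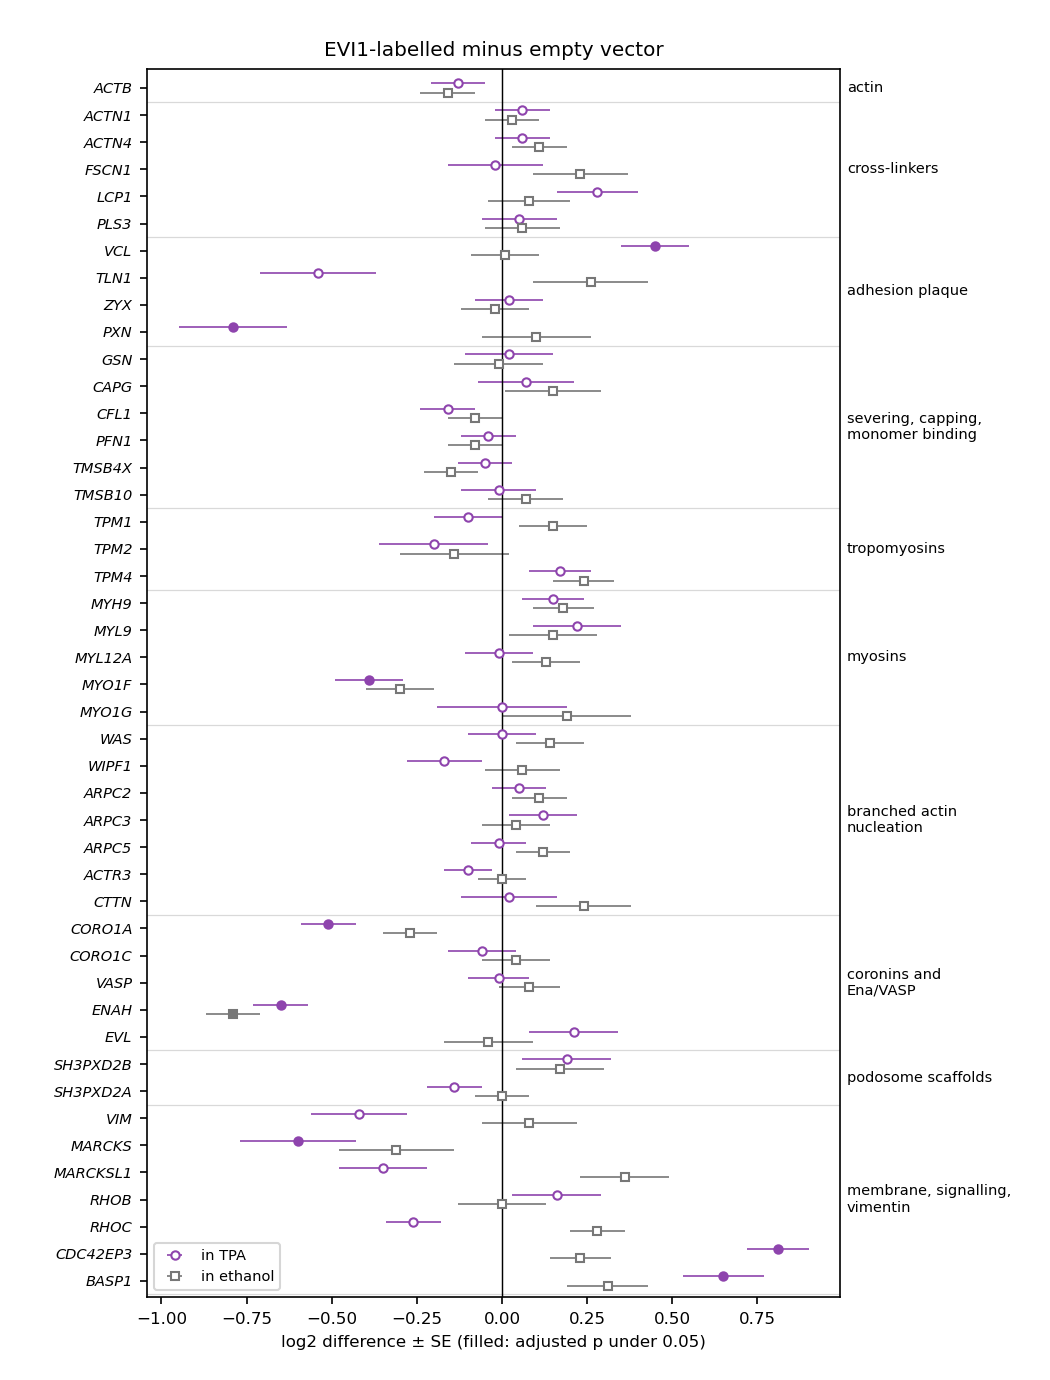
The log2 difference between EVI1-labelled and empty vector cells, with its SE, is drawn for the 45 members in TPA (circles) and in ethanol (squares), and filled symbols had an adjusted p under 0.05. ENAH is filled in both treatments, at -0.65 and -0.79, and CDC42EP3 lies farthest to the right at 0.81 in TPA.

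The TPA response itself differed between the populations for 2 of 45 members, with a background of 1.98% of all genes (0.936% higher and 1.05% lower). RHOC rose less in EVI1-labelled cells, by a difference in response of -0.53 ± 0.12 (adjusted p = 0.0359), and CDC42EP3 responded in the opposite way, with 0.58 ± 0.13 (adjusted p = 0.0413). Both lie close to the threshold. Leaving out any 1 of 11 arrays ended the RHOC call (up to 0.0967, without empty vector ethanol replicate 1) and any 1 of 10 the CDC42EP3 call (up to 0.116, without the same array). With the gap as a covariate neither was called, at -0.58 (adjusted p = 0.0679) and 0.48 (adjusted p = 0.151).

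A wider list of actin regulators had 90 of 97 genes measured. In EVI1-labelled cells 50 rose and 12 fell with TPA (median 0.33), beside 19.4% and 20.6% of all genes (median 0.00). In empty vector cells 52 rose and 13 fell (median 0.44), beside 20.7% and 22.5% (median 0.02). MYO1E, a class I myosin found in podosomes, had log2 signals of 10.31, 10.42 and 10.42 in EVI1-labelled TPA cells, 9.85, 10.23 and 10.09 in empty vector TPA cells, 5.64, 5.44 and 5.62 in EVI1-labelled ethanol cells, and 5.56, 5.71 and 5.78 in empty vector ethanol cells. TPA and ethanol arrays were far apart. It rose by 4.82 ± 0.10 (28.2-fold) in EVI1-labelled cells and by 4.37 ± 0.10 (20.7-fold) in empty vector cells.

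FGR, a Src family kinase of myeloid cells, rose by 3.33 ± 0.13 in EVI1-labelled cells and 3.48 ± 0.13 in empty vector cells, and SSH1, the phosphatase that activates cofilin, by 2.13 ± 0.08 and 2.62 ± 0.08. LPXN (leupaxin) and TGFB1I1 (HIC-5), which resemble paxillin, rose by 1.92 ± 0.10 and 2.44 ± 0.10 and by 1.44 ± 0.22 and 2.41 ± 0.22. MMP14, the membrane protease of podosomes, rose by 1.95 ± 0.14 and 1.49 ± 0.14. Chosen after their values were seen, the WAVE complex genes CYFIP1, NCKAP1L, ABI1, BRK1 and WASF2, whose proteins activate Arp2/3, all rose, from 0.55 (BRK1) to 1.44 (CYFIP1) in EVI1-labelled cells and from 0.49 (BRK1) to 1.79 (CYFIP1) in empty vector cells. NCKAP1 and ABI3 of the same complex were not called in either population.

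Formins, which nucleate and extend unbranched filaments, went both ways. DIAPH3, a formin that acts in dividing cells, fell by 2.92 ± 0.38 in EVI1-labelled cells and 3.58 ± 0.38 in empty vector cells, and DIAPH1 by 0.51 ± 0.07 and 0.66 ± 0.07. The other formins of the list were looked up after their values were seen: FMNL1 rose by 1.14 ± 0.10 in EVI1-labelled cells and 1.55 ± 0.10 in empty vector cells, and DAAM1 by 1.15 ± 0.17 and 0.79 ± 0.17. INF2 gave 0.21 ± 0.11 (adjusted p = 0.158) in EVI1-labelled cells and rose by 0.32 ± 0.11 (adjusted p = 0.0241) in empty vector cells, and DIAPH2 was not called in either. MYH10, the heavy chain of another non-muscle myosin, fell by 2.39 ± 0.10 and 2.94 ± 0.10, at TPA means of 4.88 and 4.73 that are not shown to be above background. TLN2, the second talin, fell by 0.70 ± 0.11 and 0.76 ± 0.11.

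Between the populations 5 of the 90 were higher and 15 lower in TPA, which are 5.56% and 16.7% of the list, beside 5.9% and 5.3% of all genes. In ethanol 3 were higher and 1 lower, 3.33% and 1.11%, beside 1.32% and 1.95%. Of genes above the median signal 10.1% were higher and 8.81% lower in TPA, and 2.33% and 3.28% in ethanol. The wider list was not split by brightness. ARPC1A, an Arp2/3 subunit, had log2 signals of 11.26, 11.26 and 11.36 in EVI1-labelled TPA cells, 10.47, 10.23 and 10.56 in empty vector TPA cells, 10.96, 11.03 and 11.09 in EVI1-labelled ethanol cells, and 10.18, 10.08 and 10.27 in empty vector ethanol cells. It was higher in EVI1-labelled cells without overlap, by 0.87 ± 0.09 in TPA (adjusted p = 5.05e-05) and 0.85 ± 0.09 in ethanol (adjusted p = 0.000185). ARPC1B, which encodes the alternative form of that subunit, was higher by 0.33 ± 0.07 (adjusted p = 0.00979) and 0.39 ± 0.07 (adjusted p = 0.00881). The 2 genes are neighbours on chromosome 7 with 0 protein-coding genes between them. DSTN, a relative of cofilin on chromosome 20, had 10.48, 10.50 and 10.44 in EVI1-labelled TPA cells, 11.41, 11.40 and 11.23 in empty vector TPA cells, 10.15, 10.18 and 10.16 in EVI1-labelled ethanol cells, and 10.95, 11.02 and 10.80 in empty vector ethanol cells. It was lower in EVI1-labelled cells, by log2 differences of -0.87 ± 0.08 in TPA (adjusted p = 1.98e-05) and -0.76 ± 0.08 in ethanol (adjusted p = 0.00016). LPXN and TGFB1I1 were lower in EVI1-labelled TPA cells by -0.71 ± 0.10 and -0.91 ± 0.22. The difference in response was called for 1 of the 90, which is 1.11% of the list, beside 1.98% of all genes. That gene was SSH1, at -0.49 ± 0.11 (adjusted p = 0.0454). The SSH1 call lies close to the threshold and was not tested under the alternatives.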

How the data were processed

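The deposited values are log2 signals that the authors made by RMA from 250 ng of total RNA labelled from the 3′ end. The software, per the submitters' processing notes, was Expression Console 1.3 of Affymetrix. Values were used as deposited. Of 54675 probe sets, 62 were controls, 41097 named 1 gene, 1801 several and 11777 none. The brightest single-gene probe set stood for each gene. The 4 groups, from the labels, entered 1 limma 3.58.1 fit (R 4.3.3) over 12 arrays and 19775 genes, without a block, tested on simulated data. Calls needed an adjusted p under 0.05. Members and lists were chosen with earlier results of these data known. Any member may be named; array values are given for ACTB and for up to 6 called members with the largest rise and up to 6 with the largest fall in a comparison, and up to 6 of the wider list per direction may be named. The gap was compared by exact permutation. Arrays give no read depth, and their number limits precision.

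Same-numbered arrays of the populations in TPA deviated together (r = 0.415, 0.13 and 0.151), and in ethanol (0.176, 0.143 and 0.0753). So did same-numbered TPA and ethanol arrays of EVI1-labelled cells (0.145, 0.0913 and 0.208) and of empty vector cells (0.157, 0.105 and 0.0794). Each r was above those of arrays with other numbers. Between EVI1-labelled TPA and empty vector ethanol arrays r was 0.182, 0.0265 and -0.0197. Between empty vector TPA and EVI1-labelled ethanol arrays it was 0.0796, 0.0145 and -0.016. In these cross comparisons only replicate 1 was above the arrays with other numbers. The data thus point to pairing by replicate number within a treatment or within a population, and across both for replicate 1 only. The main fit leaves the pairing out, and the block takes it in as 1 shift per replicate number shared by all 4 groups. The pairing comes from the data, not the labels. Alternatives were the block, moderation with a trend, fewer arrays or genes, another probe set, centring, the ACTB gap as a covariate and each array left out.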

Additional observations from a re-analysis of the deposited data

Results flagged for a closer look

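Members whose TPA response differed between the populations by the test of the difference itself were listed for a closer look. RHOC, a GTPase of cell migration, had a difference in response of -0.53 ± 0.12 (adjusted p = 0.0359), with a rise of 2.42 in EVI1-labelled cells and 2.95 in empty vector cells. CDC42EP3, an effector of Cdc42, had 0.58 ± 0.13 (adjusted p = 0.0413), with 0.30 in EVI1-labelled cells and -0.28 in empty vector cells. No group had enough arrays for a check of single outlying samples.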

How the results depend on the processing

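Of 78 called member results, 63 were called whichever 1 array was left out, and 15 were lost at least once. Over the arrays left out, the number of called members was 28 to 33 for TPA in EVI1-labelled cells, 30 to 37 for TPA in empty vector cells, 6 to 9 between the populations in TPA, 1 to 1 between them in ethanol and 0 to 4 for the difference in response. The gap difference was -0.61 to -0.51 (exact permutation p 0.00216 to 0.00433). With the ACTB gap as a covariate 22 of the 78 calls were lost, the difference in response had 0 calls and the populations in ethanol 2. The cause was not tested.

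The 1 call between the populations in ethanol became 2 with a trended, robust prior, 2 with only the compared groups fitted and 3 without genes below the median signal. The 2 calls of a difference in response became 4 with the trended prior (PXN and MARCKSL1 added) and 1, RHOC, after centring the arrays. With the probe set of largest interquartile range, in a fit of all probe sets, 1 was called, VIM (-1.93, adjusted p = 0.00465). Neither RHOC (0.0511) nor CDC42EP3 (0.141) was. That fit ended 7 of the 78 calls and turned VCL between the populations in TPA to -0.0033 (adjusted p = 0.993). RHOC, at -0.53, and TMSB4X in empty vector cells (0.22, adjusted p = 0.0593) kept their probe sets and lost their calls in the wider fit. With the replicate block, TPA called 34 members in EVI1-labelled and 36 in empty vector cells, the populations differed in 11 in TPA and 1 in ethanol, and the response in 3. For the response these were RHOC, TLN1 (-0.80, adjusted p = 0.046) and MARCKSL1 (-0.71, adjusted p = 0.0367), and CDC42EP3 was lost (adjusted p = 0.0556), the 1 call the block ended. Signals near background limit FSCN1, PLS3, CTTN and RHOB.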
